A study of Mus musculus with 12 samples.

Results

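The 10 genes described here are imprinted genes that act together in the control of embryonic growth, followed through cartilage of the developing mouse forearm: *H19*, *Cdkn1c*, *Grb10*, *Plagl1*, *Peg3*, *Mest*, *Dlk1*, *Meg3*, *Rian* and *Mirg*. They were taken by gene symbol from a table of 36186 gene rows, in which all 10 had a row, and all 10 were among the 10936 genes tested (at least 5 NRPKM in at least 3 of 12 libraries). NRPKM are read counts scaled to gene length and library size and further normalized by the authors, so levels can be compared between genes per length. The choice of these 10 genes used no measured value of the table, but it was made with earlier results of the data known.

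The 12 libraries were made by laser capture microdissection (LCM) and RNA-Seq from E15.5 forelimb zeugopod (the segment of radius and ulna) of mice on a mixed 129/CD-1 background, with 3 libraries in each of 4 groups. The wild type (WT) groups were the resting, proliferative and hypertrophic chondrocyte compartments. The *aadd* group was homozygous for frameshift mutations in *Hoxa9*, *Hoxa10*, *Hoxa11*, *Hoxd9*, *Hoxd10* and *Hoxd11*, and its zeugopod chondrocytes were taken whole, without separating compartments. The labels name the hypertrophic samples hyperproliferative and give *aadd* the compartment resting, and the names used by the study are kept here. The captured cells included some perichondrium, and 20 ng of total RNA per sample was amplified, so that a smaller number of cells of a type and less RNA per cell cannot be told apart.

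Imprinted genes are read mainly from the copy inherited from one parent, which is marked by DNA methylation set in the egg or the sperm. Many of them set the size of the embryo, with paternally expressed genes tending to promote growth and maternally expressed genes tending to restrain it. Members of this group are expressed together at high levels in fetal tissues and are switched down after birth as growth slows. The libraries do not separate the parental alleles, so every value below is the sum of both copies.

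Of these genes, 4 lie in the imprinted domain between *Dlk1* and *Dio3* on chromosome 12, where *Meg3*, *Rian* and *Mirg* are noncoding RNAs that carry many microRNA (miRNA) and small nucleolar RNA (snoRNA) loci. The mature miRNAs below are shown because *Mir377* (within *Mirg*) and *Mir665* (between *Meg3* and *Rian*) were the miRNA loci of the domain with the highest mean NRPKM, and because *Mir675* and *Mir335* lie within *H19* and *Mest*. The sequences are from RefSeq (build GRCm38.p6), written 5′ to 3′, with the seed (bases 2 to 8, which pair with target RNAs) in capitals.

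mmu-miR-377-5p: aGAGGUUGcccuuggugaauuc

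mmu-miR-377-3p: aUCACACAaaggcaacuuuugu

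mmu-miR-665-5p: aGGGGCCUcugccucuauccaggauu

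mmu-miR-665-3p: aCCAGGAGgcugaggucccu

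mmu-miR-675-5p: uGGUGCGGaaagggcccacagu

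mmu-miR-675-3p: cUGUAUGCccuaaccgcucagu

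mmu-miR-335-5p: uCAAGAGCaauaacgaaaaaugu

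mmu-miR-335-3p: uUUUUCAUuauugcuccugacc

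All 8 of these seeds differ from each other. The 59 miRNA rows of the chromosome 12 domain were all found in RefSeq and stand for 109 mature sequences with 101 different seeds. Of the seeds, 8 are each shared by a pair of mature sequences, among them that of mmu-miR-379-5p and mmu-miR-1193-5p.

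The promoter windows of *Meg3* and *Peg3* follow, because *Meg3* is the first of the chromosome 12 noncoding RNAs and because *Peg3* is the member, of 8 with a window, that carries GGGGCCCC, the sequence known to be bound by the zinc finger protein that *Plagl1* encodes. Each run is the 250 bases before the RefSeq start (GRCm38.p6), 5′ to 3′ on the strand of the gene, at chr12:109540746-109540995 (plus strand) for *Meg3* and chr7:6730420-6730669 (minus strand) for *Peg3*. Capitals mark GGGGCCCC and TGACGTCA, both palindromes and so the same on both strands.

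Meg3: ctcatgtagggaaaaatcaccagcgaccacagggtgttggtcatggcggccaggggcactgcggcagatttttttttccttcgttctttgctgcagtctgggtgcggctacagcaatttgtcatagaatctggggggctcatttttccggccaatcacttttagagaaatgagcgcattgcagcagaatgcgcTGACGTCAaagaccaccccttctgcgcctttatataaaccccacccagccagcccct

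Peg3: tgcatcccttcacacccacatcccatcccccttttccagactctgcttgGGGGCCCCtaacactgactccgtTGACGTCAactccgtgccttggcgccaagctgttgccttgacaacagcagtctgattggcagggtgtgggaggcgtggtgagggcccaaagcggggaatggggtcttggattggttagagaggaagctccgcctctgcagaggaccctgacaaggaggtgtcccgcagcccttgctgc

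In the *Peg3* window GGGGCCCC began 201 bases before the start and TGACGTCA 178 bases before it. In the *Meg3* window TGACGTCA began 57 bases before the start. RefSeq windows (250 bases before to 50 after a start) were at hand for 8 members and 12 starts. GGGGCCCC stood in 1 of the 12 and in 1.08% of all 32851 windows, while TGACGTCA, a motif searched only after these letters had been read, stood in 2 of the 12 and in 1.79% of all windows. These matches describe letters and were not tested for binding.

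Some facts of the whole series touch the values. The depth, taken from the commonest value above 0 among olfactory, vomeronasal and taste receptor and keratin-associated rows of a single exon, was 1890000 to 3240000 reads per library, and 1 read per kilobase was worth 0.309 to 0.530 NRPKM. The 10 genes were well covered, with an estimated 4301 to 9749 reads for *H19* and 105 to 1907 for *Dlk1* in each library. The mutated genes carry frameshifts that leave a transcript, so their RNA does not test the labels. *Hoxd11*, for example, was at 4.34 to 7.31 NRPKM in WT resting and 25.1 to 35.4 in *aadd*, and *Hoxa11* was at 11.3 to 30.5 and 5.17 to 11.1.

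The WT hypertrophic libraries were unlike each other, which bears on every comparison that uses them. All 10 osteoclast markers (*Acp5*, *Ctsk* and others) summed to 59.3 NRPKM in hypertrophic replicate 1, 1379 in replicate 2 and 1023 in replicate 3, against 37.9 to 69.4 in the 9 other libraries. Summed endothelial markers (10 of 10) were 24.4, 324 and 227 NRPKM in hypertrophic replicates 1, 2 and 3, with 15.2 to 33.2 in resting, 10.6 to 25.5 in proliferative and 18.3 to 59.9 in *aadd*. Summed macrophage markers (10 of 10 had a row) were 24.7, 287 and 229 NRPKM, with 13.4 to 45.4 in the other 9 libraries. The rise was in *Cd68* (18.2, 174 and 160), *Csf1r* (2.08, 56.7 and 49.6) and *Lyz2* (0, 37.1 and 10.5). *Aif1*, *C1qa*, *C1qb*, *C1qc*, *Emr1*, *Fcgr1* and *Mrc1* were at most at 6.10 NRPKM in hypertrophic libraries. Of these, *C1qb*, *C1qc* and *Mrc1* were highest in *aadd* replicate 2 (10.6, 4.31 and 6.71). *Acp5* was at 2.92 NRPKM in hypertrophic replicate 1 and *Calcr* at 0. Hypertrophic chondrocyte markers (10 of 10) summed to 1931, 3565 and 3929 NRPKM in the 3 hypertrophic libraries, 657 to 971 in proliferative, 49.3 to 72.3 in resting and 31.6 to 51.2 in *aadd*. The higher sum in replicates 2 and 3 came mainly from *Mmp13* (3.05, 735 and 661 NRPKM in replicates 1, 2 and 3), *Spp1* (24.1, 1083 and 979) and *Ibsp* (718, 968 and 1331), while *Col10a1* (264, 166 and 221) and *Ihh* (56.3, 9.54 and 15.3) were highest in replicate 1. Osteoblast markers (10 of 10, of which *Alpl*, *Ibsp*, *Sp7* and *Spp1* are also on the previous list) summed to 1764, 3470 and 4453 NRPKM in hypertrophic, all above the 500.1 to 1232 of proliferative, 224 to 415 of resting and 146 to 452 of *aadd*. Cartilage matrix markers summed to 2998 in hypertrophic replicate 1, but to 716 and 1049 in replicates 2 and 3, below the 2486 to 5142 of the other groups. Counts of calls in the hypertrophic comparisons are therefore given with all 3 libraries and with replicate 1 alone. The test over all 4 groups, the median changes and the fold changes of single other imprinted genes are given with all 3 only. Marker sums were uneven within the other groups too. Fibrous perichondrium and tendon markers (10 of 10) summed to 258, 342 and 357 NRPKM in resting and 304, 390 and 589 in proliferative. Their sums were 367, 329 and 449 in hypertrophic and 280, 581 and 346 in *aadd*. Skeletal muscle markers (10 of 10) summed to 88.6 NRPKM in proliferative replicate 3 and 43.0 in *aadd* replicate 2, with 8.47 to 27.0 in the other libraries. The part of these other cell types in the results was not tested.

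The 10 genes together took 1.25% to 1.56% of all NRPKM in WT resting, 1.20% to 1.39% in proliferative and 1.21% to 1.43% in *aadd*. In hypertrophic replicate 1 they took 1.10%, and in replicates 2 and 3 they took 0.427% and 0.508%. The share was lower in these 2 libraries than in the other 10.

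**Figure D1:**
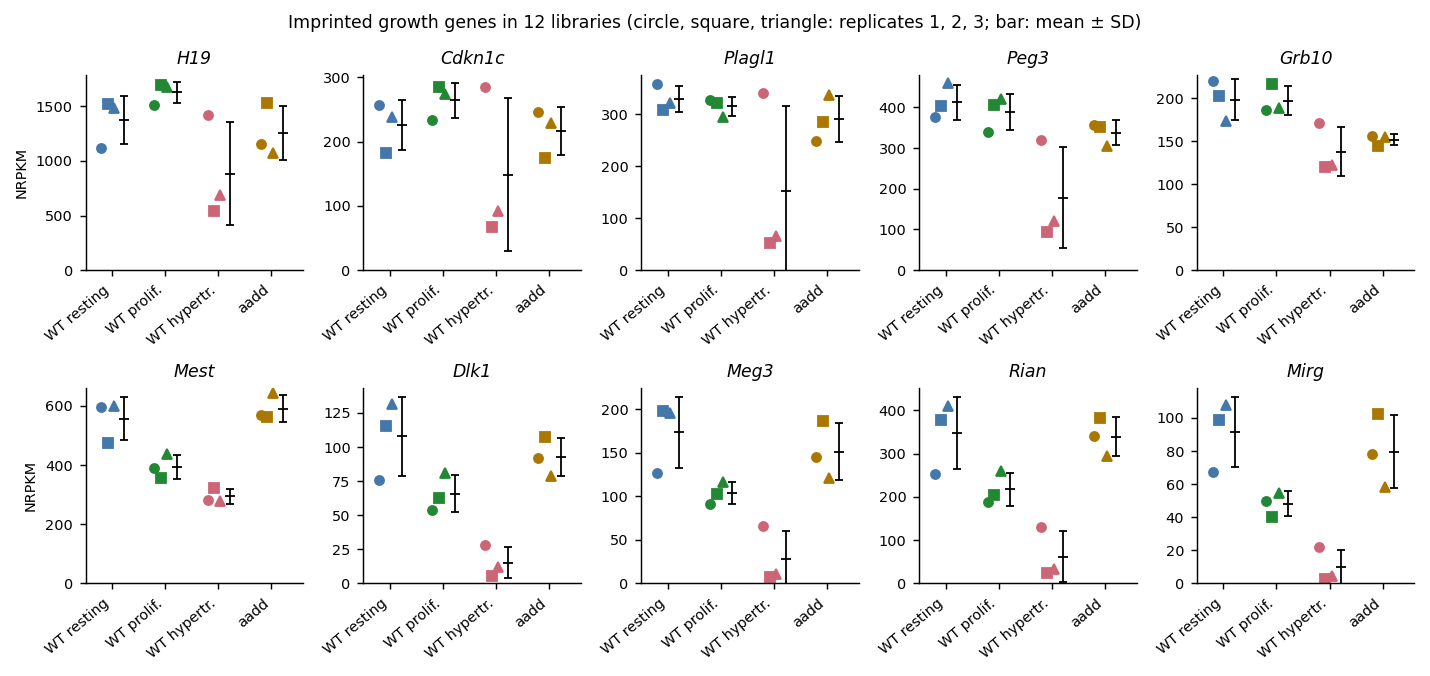
NRPKM of the 10 imprinted genes (y axis, linear from 0, scaled for each gene) in WT resting, WT proliferative, WT hypertrophic and aadd libraries; each symbol is a library and the bars give mean ± SD, ending at the axis where the SD is larger than the mean. The 3 WT hypertrophic libraries spread widely for all genes but Mest and Grb10, and the 4 chromosome 12 genes step down from resting through proliferative to hypertrophic.

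*H19* (chr7:142575531-142578146, minus strand), a maternally expressed noncoding RNA that restrains growth, was among the most abundant transcripts of this cartilage. It was at 1120, 1517 and 1486 NRPKM in the 3 WT resting libraries and at 1513, 1691 and 1674 in proliferative. The hypertrophic libraries held 1419, 540 and 687 NRPKM, and *aadd* held 1157, 1533 and 1067. Its rank by level among all rows was 1 to 4 in each library except hypertrophic replicates 2 and 3, where it was 11 and 9. Resting, proliferative and *aadd* overlapped, and hypertrophic replicate 1 lay inside the resting range.

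*Mir675*, whose hairpin lies within *H19*, was listed at 0 in all 12 libraries. Its mature forms are shown above, and these libraries, made from amplified total RNA, were not small RNA libraries.

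*Cdkn1c* (chr7:143458339-143461050, minus strand) encodes p57, a cyclin-dependent kinase inhibitor needed for chondrocytes to leave the cell cycle. It was at 256, 182 and 238 NRPKM in resting and 234, 285 and 275 in proliferative libraries. It was at 285, 67.8 and 92.3 NRPKM in hypertrophic and 246, 174 and 228 in *aadd* libraries. Hypertrophic replicate 1 held the highest value of the 12, and replicates 2 and 3 held the lowest.

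*Grb10* (chr11:11930499-12037420, minus strand), an adaptor that dampens insulin and IGF receptor signalling, had the smallest ratio of highest to lowest library of the 10. Its levels were 220, 202 and 174 NRPKM in resting, 186, 217 and 189 in proliferative, 171, 120 and 123 in hypertrophic and 156, 145 and 155 in *aadd*. All *aadd* and all hypertrophic libraries lay below all resting libraries, and resting and proliferative overlapped.

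*Plagl1* (chr10:13060504-13131695, plus strand) encodes a zinc finger transcription factor that binds at several other imprinted loci. It was nearly level in resting (358, 309 and 322 NRPKM), proliferative (327, 322 and 295) and *aadd* (249, 285 and 337). In hypertrophic libraries it was at 341, 52.0 and 65.7 NRPKM, with replicate 1 inside the resting range and replicates 2 and 3 far under every other library.

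*Peg3* (chr7:6705960-6730419, minus strand), a paternally expressed zinc finger protein, was at 376, 402 and 460 NRPKM in resting and 339, 407 and 422 in proliferative. Hypertrophic libraries held 320, 93.1 and 122 NRPKM, all below resting and proliferative. The *aadd* libraries held 358, 353 and 304 NRPKM, and these too lay below all 3 resting libraries.

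*Mest* (chr6:30733506-30748466, plus strand), a paternally expressed gene of the hydrolase family, showed a pattern of its own. It was at 597, 474 and 599 NRPKM in resting, 390, 355 and 436 in proliferative and 280, 324 and 278 in hypertrophic, with no overlap between any pair of these groups. The 3 hypertrophic libraries differed little from each other in *Mest*, and replicate 1 was between the other 2. In *aadd*, with 569, 562 and 642 NRPKM, *Mest* was at the resting level.

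The 4 chromosome 12 genes were ordered alike. *Dlk1* (chr12:109452823-109463336) encodes a membrane protein with EGF-like repeats that holds back differentiation, and it was at 75.6, 116 and 132 NRPKM in resting, 54.0, 62.5 and 80.7 in proliferative, 28.03, 5.71 and 12.1 in hypertrophic and 92.0, 107 and 78.7 in *aadd*. *Meg3* (chr12:109540996-109571729) was at 127, 198 and 195 NRPKM in resting, 91.4, 102 and 117 in proliferative, 65.7, 7.81 and 11.0 in hypertrophic and 146, 186 and 121 in *aadd*. All 4 genes are transcribed from the plus strand, *Dlk1* from the paternal copy and the 3 noncoding RNAs from the maternal copy.

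*Rian* (chr12:109603945-109661711), the host of a snoRNA cluster, was the most abundant of the 4 at 253, 378 and 411 NRPKM in resting, 188, 205 and 261 in proliferative, 131, 23.1 and 32.6 in hypertrophic and 340, 383 and 294 in *aadd*. *Mirg* (chr12:109729764-109749457), a host of miRNAs, was at 67.3, 99.0 and 108 NRPKM in resting, 50.01, 40.2 and 54.7 in proliferative, 21.9, 2.85 and 4.73 in hypertrophic and 78.1, 102 and 58.3 in *aadd*. In each of the 4 genes every hypertrophic library, replicate 1 included, lay below every proliferative and resting library. Proliferative lay below resting without overlap for *Meg3* and *Mirg*, while *Dlk1* and *Rian* overlapped by resting replicate 1, the lowest resting library for all 4.

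**Figure D2:**
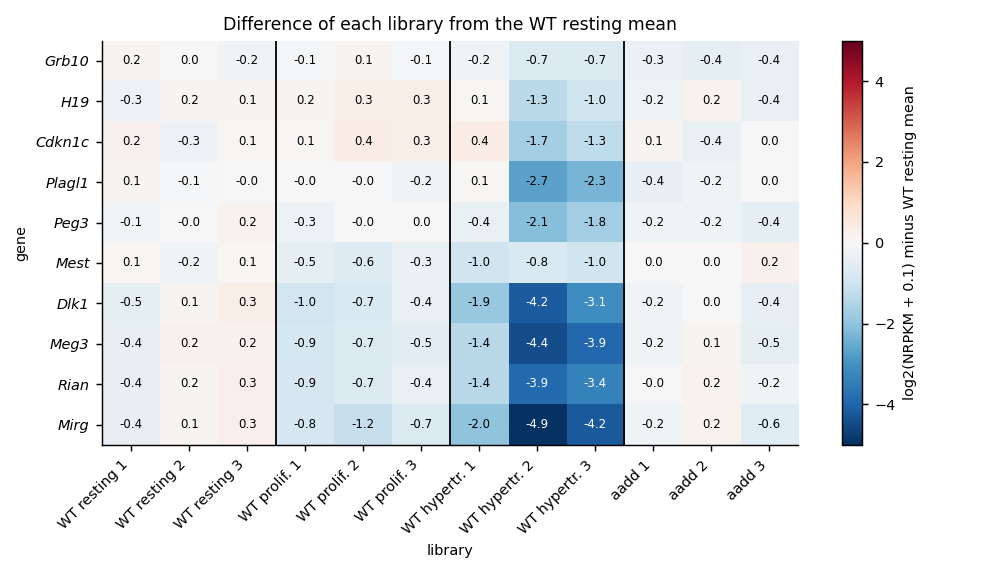
Difference of each library from the WT resting mean in log2(NRPKM + 0.1), genes in rows and the 12 libraries in columns, blue for lower and red for higher, with the value printed in each cell. Hypertrophic replicates 2 and 3 are lower for all genes, at -4.93 to -0.69, while hypertrophic replicate 1 is at -2.03 to -0.98 for Mest, Dlk1, Meg3, Rian and Mirg and at -0.36 to 0.36 for the other 5.

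The first comparison asked what changed as WT resting cells became proliferative. Of the members, 0 met the criteria for a call (unadjusted limma *P* of 0.05 or less and FC ≥ 2), against 5.53% of all genes tested (2.97% lower), and 0 had an adjusted *P* under 0.05 (0.622% of all genes). At an unadjusted *P* up to 0.05 alone, 5 of 10 were lower (9.94% of all genes tested were lower at that limit). These were *Mirg* (log2 FC -0.90, SE 0.24, limma adjusted *P* = 0.168), *Meg3* (-0.72, SE 0.23, 0.217), *Mest* (-0.50, SE 0.18, 0.251), *Rian* (-0.66, SE 0.24, 0.263) and *Dlk1* (-0.69, SE 0.27, 0.277). *Meg3*, *Mirg* and *Mest* had no overlap between the groups, which was so, in the lower direction, for 14.2% of all genes. The other 5 members did not pass, with log2 FC of *H19* (0.25, 95% interval -0.18 to 0.69), *Cdkn1c* (0.24, -0.22 to 0.71), *Grb10* (-0.01, -0.41 to 0.40), *Plagl1* (-0.06, -0.43 to 0.30) and *Peg3* (-0.09, -0.50 to 0.32), so changes within these intervals cannot be told from none.

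The second comparison was of WT hypertrophic with WT proliferative cells. With all 3 hypertrophic libraries, 6 of 10 members met the criteria, all of them lower, against 4.34% of all genes called lower (9.67% in either direction). *Mirg* was 7.08-fold lower (log2 FC -2.82, SE 0.72), *Meg3* 5.73-fold (-2.52, SE 0.78), *Dlk1* 5.15-fold (-2.36, SE 0.56) and *Rian* 4.66-fold (-2.22, SE 0.64). These genes lie in the same domain and varied together across libraries, as given below. They are thus not independent entries in this or the other counts and medians of members. *Peg3* was 2.52-fold lower (-1.33, SE 0.46) and *H19* 2.01-fold lower (-1.01, SE 0.37). The calls of *Peg3* and *H19* were lost when any library but hypertrophic replicate 1 was left out, and that of *Meg3* without proliferative replicate 3 or hypertrophic replicate 3. No member had a limma adjusted *P* under 0.05, while 7 members had an unadjusted *P* up to 0.05, all lower (8.6% of all genes). Of all 10936 genes, 0% passed adjustment. The adjusted *P* of the 6 was 0.152 to 0.231. *Plagl1* (-1.58, SE 0.70, limma adjusted *P* = 0.279), *Cdkn1c* (-1.12, SE 0.53, 0.299) and *Mest* (-0.42, SE 0.17, 0.261) missed the limit on unadjusted *P*, and *Grb10* (-0.53, SE 0.21, 0.248) missed the fold limit. The groups did not overlap for 8 members, all lower (10.9% of all genes).

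With hypertrophic replicate 1 as the only hypertrophic library, a fit that assumes its spread to be that of the other group, 2 members were called: *Dlk1* (log2 FC -1.21, limma adjusted *P* = 0.700) and *Mirg* (-1.13, 0.682). The call was lost for *Rian* (-0.72), *Meg3* (-0.65), *Peg3* (-0.28) and *H19* (-0.19), whose limma adjusted *P* was 0.789 to 0.959, and *Plagl1* (0.12) and *Cdkn1c* (0.11) changed sign. Without replicate 1, by contrast, 8 members were called and 9 had an adjusted *P* under 0.05 in limma, so the count turned on which hypertrophic libraries entered. The share of all genes passing in these other fits is not given, so their counts are not read as a trait of the members. The osteoclast, endothelial and macrophage marker sums and the cartilage matrix sum given above separated the same libraries.

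The third comparison was of WT hypertrophic with WT resting cells. It called 5 members, all lower, against 7.2% of all genes called lower (13% in either direction). *Mirg* was 13.2-fold lower (log2 FC -3.72, SE 0.73, limma adjusted *P* = 0.0387) and *Dlk1* 8.33-fold lower (-3.06, SE 0.57, adjusted *P* = 0.0355). *Meg3* (-3.24, SE 0.78, adjusted *P* = 0.0638), *Rian* (-2.88, SE 0.65, adjusted *P* = 0.0544) and *Peg3* (-1.42, SE 0.46, adjusted *P* = 0.115) met the criteria without passing adjustment, the last not without resting replicate 3 or hypertrophic replicate 2 or 3. *Mest* passed adjustment (-0.92, SE 0.18, limma adjusted *P* = 0.0384) but was 1.89-fold lower and so under the fold limit. In all, 3 members had an adjusted *P* under 0.05, all lower (3.15% of all genes), and 7 had an unadjusted *P* up to 0.05, all lower (14.4%). The groups did not overlap for 7 members, all lower (17.8%). The count of 3 was 0 when any resting library or hypertrophic replicate 2 or 3 was left out, and 10 without hypertrophic replicate 1. It was also 0 when the replicate number was fitted as a block. The share of all genes in those fits is not given.

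With hypertrophic replicate 1 alone, *Mirg* (log2 FC -2.03), *Dlk1* (-1.90), *Meg3* (-1.37) and *Rian* (-1.38) were still called against resting, and *Mest* (-0.98) again fell just short of the fold limit. The adjusted *P* in limma of these 5 was then 0.0918 to 0.168. *H19* (0.06), *Cdkn1c* (0.36) and *Plagl1* (0.05) changed sign, and *Peg3* (-0.36) and *Grb10* (-0.21) missed the limit on unadjusted *P*. In this library the osteoclast, endothelial and macrophage sums lay within the range of the other groups and the osteoblast sum of 1764 NRPKM lay above it. It is a single library, the share of all genes called with it alone is not given, and the part of other cell types was not tested.

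**Figure D3:**
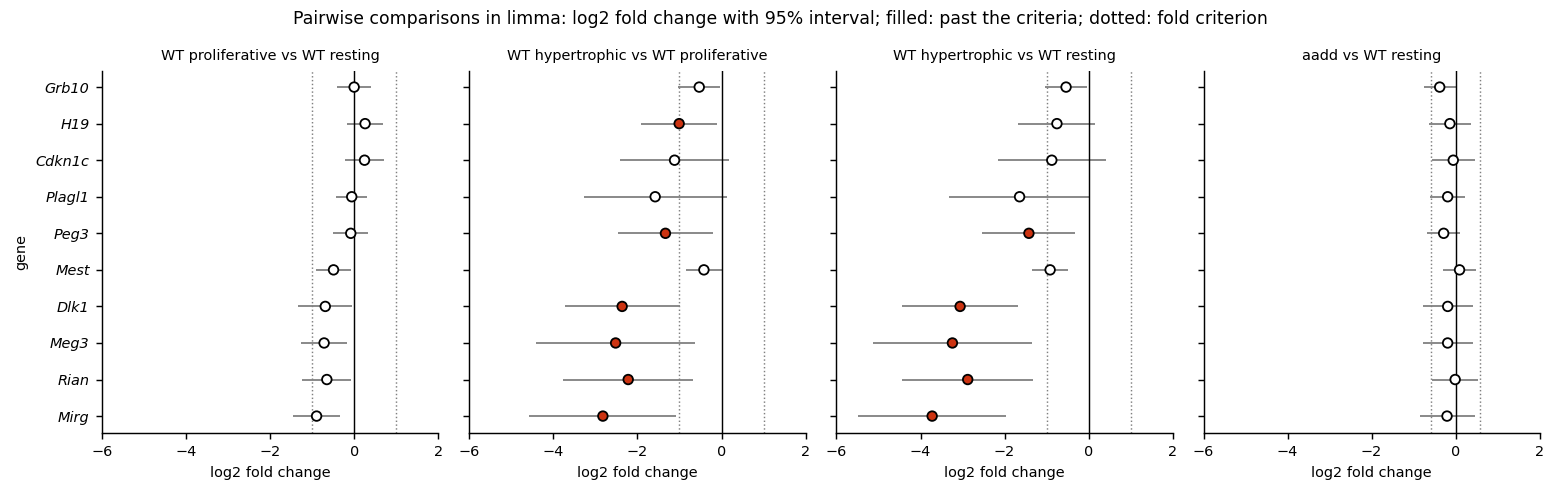
Log2 fold change (x axis) of each member in the 4 pairwise comparisons, with 95% interval from limma on 3 against 3 libraries, filled where the criteria were met and dotted at the fold limits. In the hypertrophic comparisons the chromosome 12 genes lie between -3.72 and -2.22 with wide intervals, and in aadd vs WT resting all points lie between -0.38 and 0.09.

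The fourth comparison was of the *aadd* mutant with WT resting cells, the compartment its labels give. None of the 10 members met the criteria (unadjusted limma *P* of 0.05 or less and FC ≥ 1.5), against 6.56% of all genes (2.78% lower and 3.78% higher). For an unadjusted *P* up to 0.05 alone the count was also 0 (9.58% of all genes), as it was for an adjusted *P* under 0.05 (0.119%). The change nearest to the limit was in *Grb10*, 1.30-fold lower in *aadd* (log2 FC -0.38, SE 0.16, limma adjusted *P* = 0.521). *Peg3* was 1.22-fold lower (-0.29, SE 0.16, limma adjusted *P* = 0.651). These 2 were the members without overlap between the groups, and in the same direction 7.34% of all genes had none. The other 8 members had log2 FC between -0.21 (*Mirg*) and 0.09 (*Mest*). The 95% intervals allowed from -0.86 to 0.45 for *Mirg*, -0.56 to 0.53 for *Rian* and -0.31 to 0.49 for *Mest*, so changes within these bounds cannot be told from none with 3 libraries in a group.

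The order of mean levels for *Dlk1*, *Meg3*, *Rian* and *Mirg* was resting, *aadd*, proliferative and hypertrophic. Resting and *aadd* overlapped in each of these 4 genes, and *aadd* and proliferative overlapped in *Dlk1* but not in the noncoding RNAs. In *Mest* the *aadd* mean of 591 ± 44.5 NRPKM was above the resting mean of 557 ± 71.3 (SD, n = 3), with overlap.

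Over all 4 groups, the limma moderated F test gave 5 members an adjusted *P* under 0.05, against 13.8% of all genes. These were *Dlk1* (adjusted *P* = 0.00565), *Mest* (0.00616), *Mirg* (0.00667), *Rian* (0.0109) and *Meg3* (0.0170). *Peg3* (adjusted *P* = 0.0579), *Grb10* (0.101), *Plagl1* (0.133), *H19* (0.155) and *Cdkn1c* (0.252) did not pass in the same test. The median log2 change of the 10 members was -0.29 from resting to proliferative, -1.46 from proliferative to hypertrophic, -1.53 from resting to hypertrophic and -0.19 from resting to *aadd*, while that of all genes tested was between -0.06 and 0.04 in these comparisons.

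**Figure D4:**
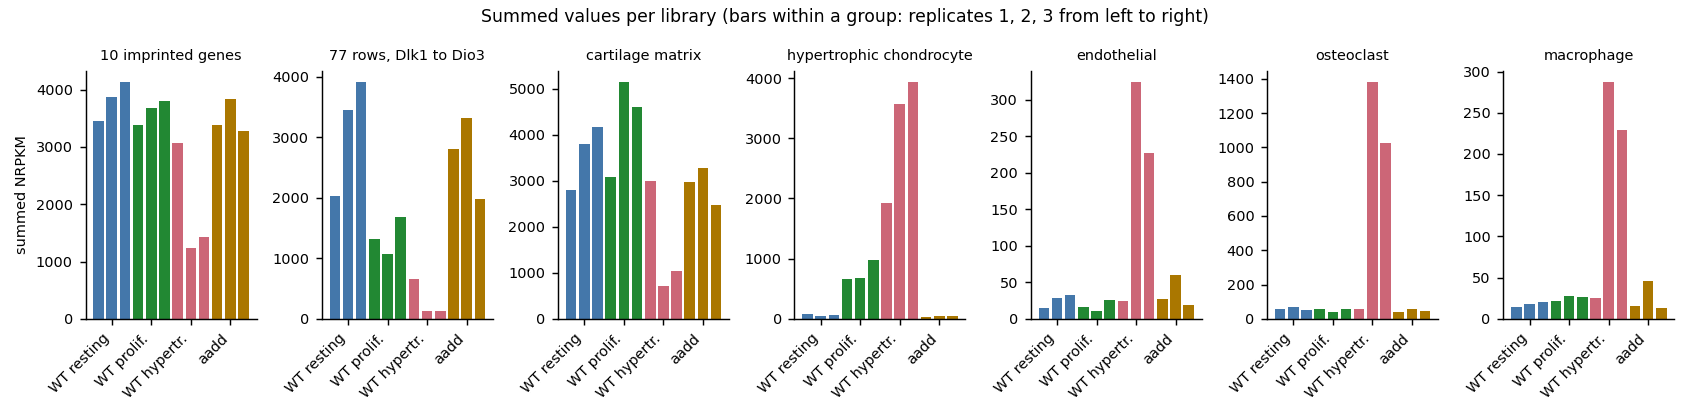
Summed NRPKM per library (bars from 0, a separate scale in each panel, replicates 1 to 3 from left to right) of the 10 imprinted genes, the 77 rows of the chromosome 12 domain and 5 marker lists. The member sum is 3064 in hypertrophic replicate 1 and 1236 and 1428 in replicates 2 and 3, the libraries in which the endothelial, osteoclast and macrophage sums are high and the cartilage matrix sum is low.

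The chromosome 12 domain held 77 rows from *Dlk1* to *Dio3*, of which 59 were miRNA, 7 snoRNA and 11 other rows. Of these, 20 were listed at 0 in all 12 libraries and 50 were tested. The 66 miRNA and snoRNA rows rest on at most 61.2 estimated reads in a library. Of these, 26 lie within a member (2 in *Meg3*, 10 in *Rian* and 14 in *Mirg*), whose reads they can share, and 40 lie within none. The libraries were made from total RNA, and whether the reads of these rows came from precursors or mature miRNAs was not tested.

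The 5 longer transcripts tested (the 4 members and *Rtl1*) had log2 FC between -0.90 and -0.66 from resting to proliferative and between -3.72 and -2.88 from resting to hypertrophic. *Rtl1* lies on the minus strand, opposite to the members. Whether the counting used strand is not given, so its row cannot be told apart from plus-strand RNA over the same span. Of the 45 small RNA rows tested, 27 reached 5 NRPKM in fewer than 3 of the 6 proliferative and hypertrophic libraries, so they passed the filter only with resting or *aadd* libraries, and the filter itself favours lower values in the other groups. In addition, 21 were listed at 0 in hypertrophic replicates 2 and 3, where a log2 FC depends on the pseudocount. Counts of called small RNA rows are therefore not given, and all rows, tested or not, are described by their sums. The 66 small RNA rows summed to 1447, 2563 and 2967 NRPKM in resting, 887, 618 and 1115 in proliferative, 391, 83.4 and 66.4 in hypertrophic and 2075, 2455 and 1385 in *aadd*. The summed NRPKM of the 77 rows was 2028 to 3904 in resting, 1064 to 1678 in proliferative, 1983 to 3316 in *aadd* and 663, 125 and 132 in the 3 hypertrophic libraries. Proliferative thus lay below resting and *aadd* without overlap, and hypertrophic replicate 1 lay below proliferative. The small RNA rows made up most of this sum (2563 of 3445 NRPKM in resting replicate 2). They rest on few reads and can share those of *Rian* and *Mirg*, and no share of all genes stands beside a sum.

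The rows with the highest mean, besides the members, were the snoRNA *AF357425* within *Rian*, *Mir377* and *Mir665*. *AF357425* was at 279, 265 and 321 NRPKM in resting, 181, 46.7 and 157 in proliferative, 90.8, 18.4 and 12.7 in hypertrophic and 318, 322 and 262 in *aadd*. *Mir377*, whose mature forms are shown above, was at 118, 186 and 214 NRPKM in resting, 69.0, 65.5 and 92.1 in proliferative, 41.7, 6.72 and 17.3 in hypertrophic and 130, 180 and 99.3 in *aadd*. *Mir665* was at 148, 182 and 233 NRPKM in resting, 114, 22.9 and 39.7 in proliferative, 48.7, 6.64 and 4.29 in hypertrophic and 133, 149 and 108 in *aadd*. All 3 lay lower in proliferative than in resting without overlap, as did 14.2% of all genes tested. Their log2 FC was -1.39 for *AF357425*, -1.16 for *Mir377* and -1.97 for *Mir665*, with limma adjusted *P* of 0.259, 0.135 and 0.190. *AF357425* and *Mir377* lie within *Rian* and *Mirg*, whose reads they can share.

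**Figure D5:**
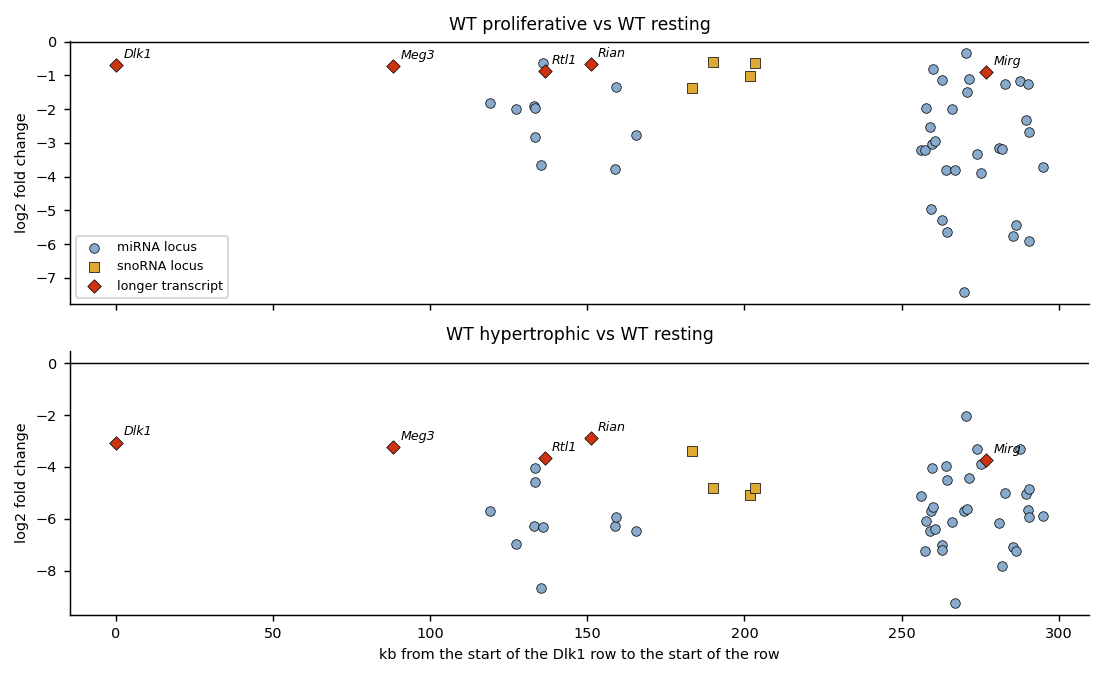
Log2 fold change (y axis) of the 50 tested rows of the chromosome 12 domain against the distance of each row's start from the Dlk1 start in kilobases (x axis), for WT proliferative and WT hypertrophic vs WT resting. The longer transcripts lie between -0.90 and -0.66 in the upper and between -3.72 and -2.88 in the lower panel, and the small RNA rows, which rest on few reads and of which 27 of 45 passed the filter only with resting or aadd libraries, spread further.

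The proportions of the noncoding RNAs differed between libraries. The ratio of *Meg3* to *Rian* NRPKM was 0.412 to 0.523 in 10 libraries and 0.338 and 0.339 in hypertrophic replicates 2 and 3. That of *Mirg* to *Rian* was 0.196 to 0.267 in all resting, proliferative and *aadd* libraries and 0.167, 0.123 and 0.145 in hypertrophic, below all other libraries. Pearson *r* of log2(NRPKM + 0.1) between the 4 genes was 0.983 to 0.996 over 12 libraries (6 pairs) and 0.924 to 0.976 over the 9 libraries that were not hypertrophic.

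Between the other members such likeness rested on the hypertrophic libraries. Among *H19*, *Cdkn1c*, *Plagl1* and *Peg3*, *r* was 0.854 to 0.957 over 12 libraries and -0.10 to 0.59 over the 9. The median over all 45 pairs of members was 0.83 over 12 libraries and 0.0024 over 9. Over the 9 the pairs ran from -0.75 (*H19* with *Mest*) to 0.98 (*Dlk1* with *Rian*), so a median near 0 does not mean unrelated levels. With the chromosome 12 genes, *r* over the 9 was -0.71 to -0.54 for *Cdkn1c* and 0.55 to 0.68 for *Mest*. The points share the libraries and hence their cell makeup and normalization, and hypertrophic replicates 2 and 3 stand apart from the rest, so these values are descriptions.

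By the same measure over 12 libraries, the genes nearest to the chromosome 12 members were mostly their neighbours. *Dlk1* was nearest to *Mirg*, *Mir377* and *Rian* (*r* = 0.990 for each), *Meg3* to *Rian* (0.996), *Rgma* (0.996) and *Rtl1* (0.995), *Rian* to *Meg3* (0.996), *Rgma* (0.996) and *Mirg* (0.995), and *Mirg* to *Rtl1* (0.996), *Rian* (0.995) and *Meg3* (0.993). *Rgma*, which encodes a membrane-anchored BMP co-receptor, was the gene outside the domain on these lists. Over the 9 libraries these values were 0.922 to 0.983.

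Among the other members, *Plagl1* was nearest to *Sox9* (*r* = 0.993 over 12 libraries, 0.782 over 9), the transcription factor of chondrocyte identity, then to *Nlgn3* (0.991 and 0.393) and *Sorbs2* (0.984 and 0.472). *Peg3* was nearest to its imprinted neighbour *Zim1* (0.991 and 0.833) and to *Col9a3* and *Col9a1* (0.991 each, and 0.875 and 0.884 over 9), which encode chains of collagen IX. *Cdkn1c* was nearest to *Phactr2*, *Hapln1* (a cartilage link protein) and *Rgag1* (0.967 each, and 0.757 to 0.796 over 9). *H19* was nearest to *Dym* (0.989), *Col27a1* (0.982) and *Trpv4* (0.974), *Grb10* to *Csgalnact1* (0.936), *Kif26b* (0.928) and *Ctnnal1* (0.927), and *Mest* to *Angptl1* (0.950), *Dzip1* (0.947) and *Usp54* (0.947). Over the 9 libraries these were 0.892 to 0.959 for *H19*, 0.863 to 0.899 for *Grb10* and 0.864 to 0.920 for *Mest*.

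Other imprinted genes were taken from a list of 51, of which 50 symbols had a row and 33 rows were tested. From resting to proliferative 5 rows met the criteria (4 lower, 1 higher; with the replicate block 6, *Phlda2* with log2 FC 1.70 being added), from proliferative to hypertrophic 12 (11 lower, 1 higher), from resting to hypertrophic 12 (all lower) and from resting to *aadd* 2 (both lower). The shares of all genes are those given above for the same comparisons (5.53%, 9.67%, 13% and 6.56% in either direction). They belong to the main fits, and no share is given for the fits with hypertrophic replicate 1 alone. With hypertrophic replicate 1 alone, 3 rows were called against proliferative and 7 against resting. The median log2 FC of the 33 rows was -0.20, -0.43, -0.77 and -0.02 in the 4 comparisons.

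*Igf2*, the fetal growth factor gene 75.2 kb from *H19* and read from the paternal copy, was at 1028, 1296 and 1413 NRPKM in resting, 1313, 1394 and 1646 in proliferative, 1119, 386 and 529 in hypertrophic and 1083, 1568 and 1201 in *aadd*. The ratio of *H19* to *Igf2* NRPKM was 1.05 to 1.17 in resting, 1.02 to 1.21 in proliferative, 1.27, 1.40 and 1.30 in hypertrophic and 0.889 to 1.07 in *aadd*. *Igf2r*, the maternally expressed receptor that removes IGF2, was at 110 to 140 NRPKM in resting, 87.8 to 101 in proliferative, 65.7 to 80.5 in hypertrophic and 80.2 to 127 in *aadd*. The 3 WT compartments did not overlap in *Igf2r*, whose row shares part of its span with the antisense RNA *Airn*, and its F test did not pass adjustment (limma adjusted *P* = 0.0793).

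On chromosome 6, 2 rows beside *Mest* were also lower in proliferative than in resting cells. *Klf14*, an intronless zinc finger gene 223 kb from *Mest*, was at 20.5, 16.7 and 19.8 NRPKM in resting, 4.11, 10.0 and 6.06 in proliferative, 2.16, 1.14 and 2.37 in hypertrophic and 16.1, 18.2 and 21.5 in *aadd*. It fell in both WT steps without overlap, with log2 FC of -1.57 (SE 0.33, adjusted *P* = 0.108) from resting to proliferative and -3.32 (SE 0.30, adjusted *P* = 0.00413) from resting to hypertrophic in limma.

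*Copg2*, a coat protein gene on the opposite strand, has 2 rows. The row at chr6:30748412-30750638, which overlaps the 3′ end of *Mest*, was at 43.3, 53.6 and 62.4 NRPKM in resting, 19.98, 23.4 and 30.8 in proliferative, 22.8, 25.1 and 21.6 in hypertrophic and 60.8, 64.4 and 58.2 in *aadd*, and was 2.16-fold lower in proliferative and 2.26-fold lower in hypertrophic than in resting (limma adjusted *P* = 0.108 and 0.0252). The row of the rest of *Copg2* was at 14.3 to 20.7 NRPKM in all 12 libraries, and the points below are about the first row. By their coordinates this row and that of *Mest* share chr6:30748412-30748466. Whether the counting used strand is not given in the sources used here, so reads of the 2 genes in that stretch cannot be told apart. Whether reads of *Mest* run on into the rest of the first *Copg2* row was not tested.

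Of the other genes with an adjusted *P* under 0.05 in the limma F test, *Ppp1r9a* (neurabin, of the *Peg10* region) was at 42.0, 68.0 and 64.6 NRPKM in resting, 22.8, 28.5 and 27.3 in proliferative, 18.7, 8.88 and 8.65 in hypertrophic and 40.01, 37.5 and 31.7 in *aadd*. It was lower than in resting in all 3 other groups without overlap (log2 FC -1.12, -2.33 and -0.65), and its adjusted *P* was 0.0221 in hypertrophic against resting in limma. *Rtl1*, a retrotransposon-derived gene of the chromosome 12 domain, went with its neighbours at 56.9, 90.7 and 91.4 NRPKM in resting, 44.7, 33.7 and 49.5 in proliferative, 25.0, 2.14 and 4.17 in hypertrophic and 64.3, 81.6 and 43.4 in *aadd*. It lies on the opposite strand to them, and whether its row also holds plus-strand RNA was not tested.

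*Magel2*, of the Prader-Willi region, moved the other way in the first step, at 31.7, 35.2 and 36.7 NRPKM in resting and 49.3, 79.3 and 84.2 in proliferative (higher by a fold with a 95% interval of 1.34 to 2.99, limma adjusted *P* = 0.139). It then was at 24.2, 5.76 and 6.34 NRPKM in hypertrophic, and at 22.7, 38.9 and 15.7 in *aadd*. *Usp29*, which starts beside *Peg3*, was at 21.5, 24.5 and 27.3 NRPKM in resting, 14.5, 16.4 and 14.3 in proliferative, 10.1, 1.07 and 1.19 in hypertrophic and 19.7, 18.6 and 17.8 in *aadd*. The ratio of *Peg3* to *Usp29* NRPKM was 16.4 to 17.5 in resting, 23.5 to 29.6 in proliferative, 31.7, 86.8 and 103 in hypertrophic and 17.1 to 18.97 in *aadd*.

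*Peg10*, another retrotransposon-derived gene, was at 139 to 183 NRPKM in resting, 149 to 165 in proliferative, 97.1, 49.3 and 49.4 in hypertrophic and 109 to 155 in *aadd*. *Commd1* was the row called higher in hypertrophic than in proliferative cells, at 9.20, 17.8 and 12.5 against 5.52, 6.99 and 5.75 NRPKM. In *aadd*, besides *Ppp1r9a*, *Asb4* met the criteria, at 42.2, 18.7 and 28.5 NRPKM against 93.3, 47.8 and 73.5 in resting (2.44-fold lower, log2 FC -1.28, SE 0.36, limma adjusted *P* = 0.334), with no overlap.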

How the data were processed

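RNA-Seq was run on 12 LCM samples, which the study describes as 3 independent sets that span the WT and *aadd* compartments. Whether the replicate numbers mark these sets is not given in the sources used here. The deposited values are RPKM that the authors normalized further between libraries (NRPKM), on a linear scale with zeros kept, for 36186 rows. Per the labels, RNA was amplified with the NuGEN kit, and the submitters' processing notes name TopHat and mm10. The authors removed reads with several alignments and duplicates and computed values in GeneSpring. How libraries were scaled to each other and whether strand was used is not given in the sources used here. No per-sample column was left unused.

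The test was limma 3.58.1 (R 4.3.3) on log2(NRPKM + 0.1), and all fold changes are on this scale. Other tools were Python 3.11.15, pandas 2.3.3, numpy 2.4.6 and matplotlib 3.10.9. Genes with at least 5 NRPKM in 3 or more libraries were fitted, 10936 in all, each comparison on its 6 libraries. A call needed an unadjusted *P* of 0.05 or less and FC ≥ 2 (1.5 for *aadd*), the criteria of the study, and Benjamini-Hochberg adjusted *P* is over all genes tested. For *aadd* against wild type the study also ran an Audic Claverie test on pooled reads. By its account that test found more differences than the moderated test, and it was not repeated here. The procedure was tested on simulated data. An exact permutation test of 3 against 3 libraries cannot go below 0.1 and was not used. Estimated reads cover counting error only.

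The members and lists were chosen with earlier results of these data known. All members are named, with other imprinted genes whose adjusted *P* was under 0.05 in a comparison or in the F test, plus *Igf2* and *Igf2r*, the 3 highest other rows of the chromosome 12 domain, and the 3 genes with the highest *r* to each member. *Asb4*, 1 of 2 rows called in *aadd*, was named after its values were seen.

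Same-numbered libraries deviated together between WT resting and WT proliferative (*r* = 0.281, 0.179 and 0.198 across genes), so the number was taken to pair them in a repeated fit with a block. The values given above for this comparison are from the fit without pairing. With the block, the limma adjusted *P* of *Mirg*, *Meg3*, *Mest*, *Rian* and *Dlk1* was 0.161 to 0.197. In hypertrophic against resting *r* was 0.066, 0.063 and 0.111, smaller but for each hypertrophic library the highest with its own number. In hypertrophic against proliferative *r* was -0.058, 0.054 and 0.124, and in *aadd* against resting 0.051, 0.280 and -0.097. The numbers were not taken as pairs in these comparisons, and whether they pair the libraries is not settled. Fits were repeated with each library left out, the replicate number as a block, a variance trend, all 12 libraries together, quantile or median-of-ratios scaling, a pseudocount of 1, and the filter dropped or taken over the 6 libraries compared. Shares of all genes are given for the main fits only, so counts under the repeated fits stand without that background. Hypertrophic replicate 1 alone, the 9 libraries without hypertrophic and TGACGTCA were added after seeing the data.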

Additional observations from a re-analysis of the deposited data

How the results depend on the processing

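The members had at least 67 estimated reads in every library, and the small RNA rows of the domain at most 61.2. For *H19* in WT proliferative against resting the log2 FC turned from 0.25 to -0.29 under quantile normalization. That of *Grb10* in the same comparison turned from -0.01 to 0.041 with the median of ratios and ran from -0.10 to 0.071 with each library left out, and that of *Peg3* from -0.15 to 0.0094. In *aadd* against resting, *Rian* turned from -0.01 to 0.14 under quantile normalization and ran from -0.23 to 0.12 with a library left out, *Cdkn1c* from -0.21 to 0.089 and *Mest* from -0.020 to 0.15. None of these passed a limit. The cause was not tested.

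With hypertrophic replicate 1 as the only hypertrophic library, members called fell from 6 to 2 against proliferative and from 5 to 4 against resting, members with an adjusted *P* under 0.05 from 3 to 0 against resting, and other imprinted rows called from 12 to 3 and from 12 to 7. *Cdkn1c* (0.11 and 0.36) and *Plagl1* (0.12 and 0.053) then changed sign in both comparisons and *H19* (0.060) against resting, by the choice of libraries itself.

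Members with an adjusted *P* under 0.05 in hypertrophic against resting were 5 with a pseudocount of 1, 0 with no filter, 6 with all 12 libraries in one fit, 5 with a variance trend and 0 with the replicate block. In proliferative against resting, where the numbers paired the libraries, the block changed no call of a member and added 1 other imprinted row, *Phlda2*. Elsewhere it ended that of *H19* in hypertrophic against proliferative and added *Plagl1* in hypertrophic against resting. *H19* lost that call with no filter and under quantile normalization too. Against proliferative, all 12 libraries in one fit gave 4 in place of 0. Quantile normalization called 8 members in hypertrophic against resting. All 12 libraries in one fit called 1 other imprinted row in *aadd* in place of 2. The causes were not tested.

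With each library left out in turn, members called ranged from 0 to 1 in proliferative against resting (1 without resting replicate 1), from 3 to 8 in hypertrophic against proliferative (3 without proliferative replicate 3 or hypertrophic replicate 3) and from 4 to 8 in hypertrophic against resting. Members with an adjusted *P* under 0.05 ranged from 0 to 9 and from 0 to 10 in the hypertrophic comparisons and from 3 to 10 in the F test (3 without hypertrophic replicate 3). The highest values came without hypertrophic replicate 1. Other imprinted rows called ranged from 5 to 15 in hypertrophic against proliferative (5 to 7 without any 1 proliferative library or hypertrophic replicate 2 or 3) and from 1 to 3 in *aadd* (1 without resting replicate 2 or *aadd* replicate 3). In *aadd*, 0 members were called under every alternative run. The median *r* between members was 0.0024 over the 9 libraries without hypertrophic.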
